A study of Mus musculus with 24 samples.

Results

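The secreted Wnt antagonists Wif1, Sfrp1, Sfrp2, Sfrp4, Frzb, Dkk2 and Dkk3, and Ctnnb1, Axin2 and Lef1 of the β-catenin branch, were followed across 24 mammary tumors of female BALB/c mice. The 10 genes were read from every noncontrol array probe that carries one of these gene names, which gave 12 probes among 39429. Of the 10 genes, 9 had a probe that passed the filter on low signal, and they stand among 20944 genes tested in all. The genes were chosen with their early and late values known, so the differences by onset are given as a description with no test of their own.

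All mice had received the carcinogen DMBA (7,12-dimethylbenz[a]anthracene) by gavage around puberty, and each tumor was hybridized once, beside Universal Mouse Reference RNA, a pool from 11 mouse cell lines. HFD mice ate a diet high in saturated animal fat from about weaning on and LFD mice a low-fat diet. LFD-HFD and HFD-LFD mice were switched from the first diet of the name to the second at the end of the peripubertal period. The labels divide the tumors by onset, which gives 3 early and 6 late HFD tumors, 3 early and 3 late HFD-LFD tumors, 5 late LFD tumors and 4 late LFD-HFD tumors. No early tumor came from LFD or LFD-HFD mice, so onset is compared across diets as well as within HFD and HFD-LFD. One strain and one carcinogen were used, and nothing in the labels ties a tumor to an animal, so p-values measure the spread between these tumors, some of which may share a mouse. The titles MSU_59a and MSU_59b share a number, as do MSU_62a and MSU_62b, but the labels give the tumors of each pair different diets. In bulk tumor RNA, fewer cells of a type and less RNA per cell cannot be told apart.

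Wnt ligands are secreted proteins that bind Frizzled receptors and LRP coreceptors. In the canonical branch this stops the destruction complex, which is built on Axin and APC, from degrading β-catenin (Ctnnb1). β-catenin then enters the nucleus and switches on target genes with TCF/LEF factors, Lef1 among them. Wif1 binds Wnt ligands outside the cell. The Sfrp proteins and Frzb resemble the ligand-binding part of Frizzled and also capture Wnts, Dkk2 acts on LRP coreceptors, and Dkk3 is a divergent Dkk whose role in the pathway is less settled. Axin2 is both a part of the destruction complex and a classical target of the pathway, and several antagonists are targets too. In the mammary gland, Wnt signals act on basal and stem cells, and the first Wnt gene was found at insertion sites of a mouse mammary tumor virus.

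The probes on which the results turn are shown by their first 30 bases of 60, as the array files give them, with no letters in capitals because none was singled out. The probe of Wif1 lies on the plus strand at chr10:120537079-120537138 (mm9). Axin2 was read by a pair of probes, at chr11:108803927-108803986 (A_66_P134405) and chr11:108812034-108812093 (A_55_P2000783). Lef1 was also read by a pair, of which A_51_P420400 spans chr3:130907851-130926012 across a splice junction and A_55_P2076871 lies at chr3:130926200-130926259. The Ctnnb1 probe lies at chr9:120869274-120869333. Each is printed 5′ to 3′ because the levels below are those of these oligonucleotides and not of whole transcripts.
Wif1 A_51_P484526: ggctgatatctactcttccttttaggtttt
Axin2 A_66_P134405: tcctgggggaacagattattattgctactc
Axin2 A_55_P2000783: cttggtacaataattattgtaattaagaga
Lef1 A_51_P420400: gtacaggtcccagaatgacagctgcctaca
Lef1 A_55_P2076871: actgcaagcgccgacttccaaaaagaaagc
Ctnnb1 A_52_P424585: ttctaagaaccgagtaatggtgtagaacac

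Levels are log2 ratios of tumor over reference, so 0 means equal signal in tumor and reference. The labels place the tumor in Cy5 and the reference in Cy3, whereas the methods of the study place the reference in Cy5, and the direction used here is that of the labels. The reference RNA is the same on every array, and over all probes the SD from array to array had a median of 0.19 in Cy3 against 0.47 in Cy5, on the log2 scale. For the Wif1 probe alone the SD was 0.25 in Cy3 and 2.13 in Cy5. On an array, 65.7% to 89.1% of probes exceeded background clearly in the tumor dye, and precision is limited by how many arrays there were. On the 7 arrays of slides 6 and 7, all from late tumors, 18.3% to 28.3% of the spots lay in rows where the Cy5 signal faded toward an edge. Those spots were set missing, which left Ctnnb1 and Sfrp4 with 20 tumors, Dkk3 with 21 and Sfrp2 with 23. Wif1 and Frzb lay outside those rows, but on slide 6 the bands of rows around them stood at -0.20 to -0.06 log2 units for Wif1 and at -0.36 to -0.21 for Frzb. On the same slide the bands around Sfrp2, which was set missing on only 1 array, stood at -0.52 to -0.41.

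Wif1 was high in every early tumor and ranged widely among late tumors. In early HFD tumors its log2 ratio was 2.72, 2.99 and 3.78, and in early HFD-LFD tumors it was 3.50, 3.54 and 4.06. The late tumors ran from -3.08 to 3.34 with a median of -0.19. No early tumor lay below 2.72, and of the 18 late tumors only MSU_59b (HFD-LFD, 3.34) reached that level. The early mean was 3.43 ± 0.50 (SD, n = 6) and the late mean -0.12 ± 1.69 (SD, n = 18), a difference of 3.55 log2 units with an SE of 0.67, or 11.7-fold.

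The Wif1 difference stood in both diets and in both scan sessions that held early and late tumors. Within HFD the early mean exceeded the late mean by 4.28 log2 units (3 and 6 tumors), and within HFD-LFD by 2.13 (3 and 3 tumors). In scan session 1 the difference was 3.71 (3 early and 8 late tumors), and in session 2 it was 3.52 (3 and 3). No early tumor was among the 7 of session 3, and on the single slide with early and late tumors the 3 early HFD-LFD tumors exceeded the LFD-HFD tumor by 4.53.

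Among late tumors, those of LFD mice held Wif1 at -0.70, 0.40, 0.76, 0.96 and 1.76. The late HFD tumors ran from -3.08 through a median of -1.19 to 2.20. The LFD-HFD tumors lay at -1.70, -0.97, -0.83 and 0.15, and the late HFD-LFD tumors at 0.18, 1.19 and 3.34. Ordered by mean, late HFD-LFD tumors (1.57 ± 1.61, SD, n = 3) came first, followed by LFD (0.64 ± 0.90, n = 5), LFD-HFD (-0.84 ± 0.76, n = 4) and late HFD (-1.11 ± 1.96, n = 6). Neighbours in that order differ by less than the larger of their SDs except LFD and LFD-HFD, and all 4 late means lie below both early means.

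**Figure D1:**
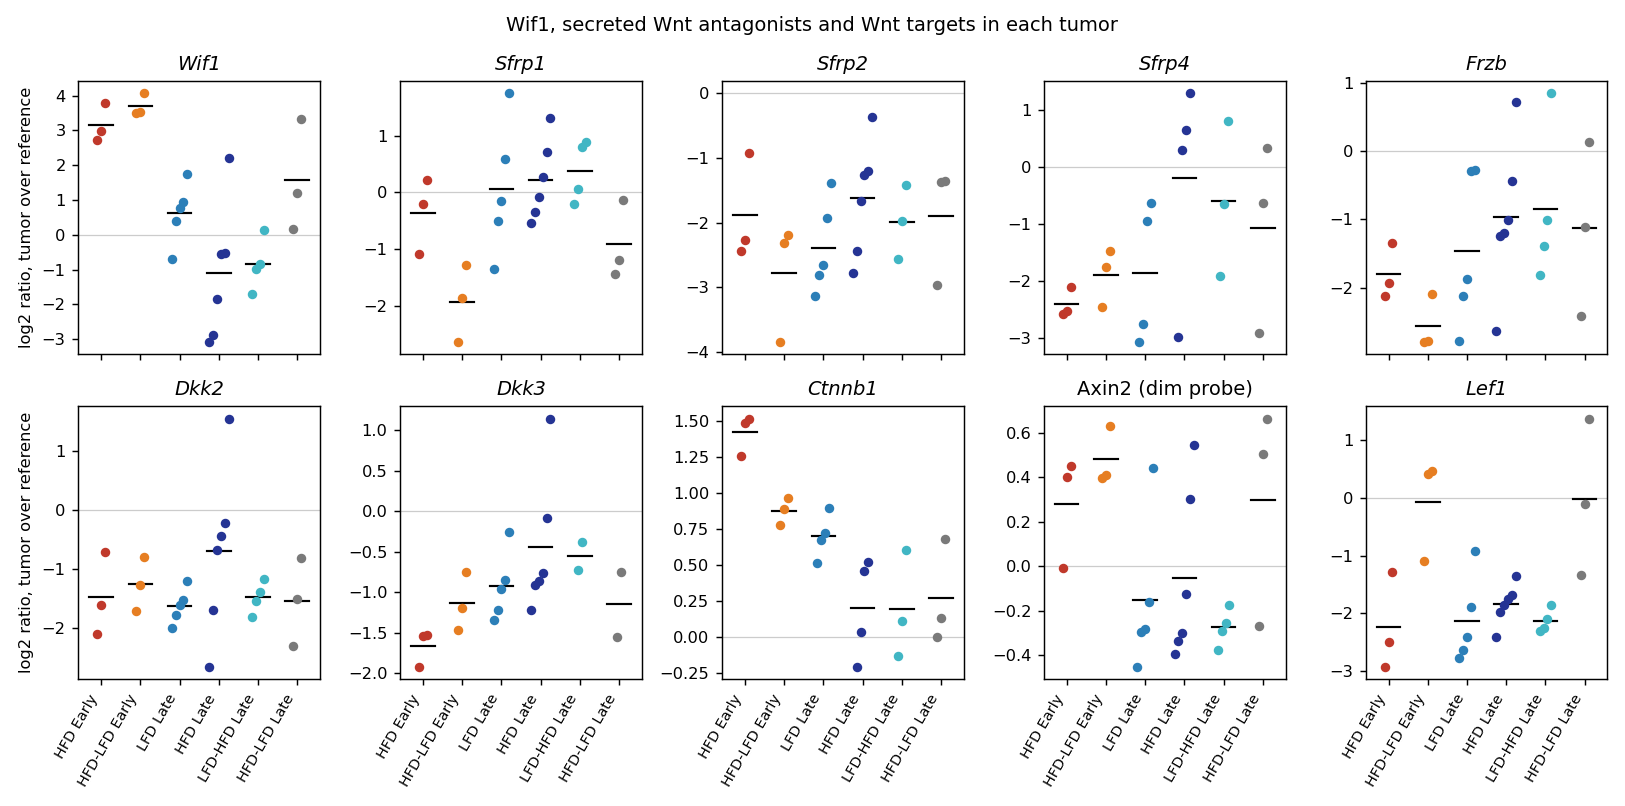
Log2 ratio of tumor over reference (y axis, own scale in each panel) for each of the 10 genes, with 1 point per tumor, grouped by diet and onset (x axis) and black lines at group means. Wif1 lies at 2.72 or above in all 6 early tumors and at 3.34 or below in all 18 late tumors, and spots set missing are left out.

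The other secreted antagonists did not follow Wif1. Their early means were lower than their late means for all 6, although none of the 6 passed the threshold used across all genes in the main setting. In other settings Sfrp1 passed with imputed values, with the background fitted on all spots, with array weights and without any 1 of MSU_26, MSU_28, MSU_59b, MSU_96, MSU_97, MSU_137 or MSU_163. Dkk3 passed with imputed values, with the background fitted on all spots and without MSU_86, and Frzb with the background fitted on all spots and with array weights. The genes were chosen on this contrast, so nothing is read from these passes. Sfrp1, which binds Wnts and is often silenced in carcinomas, lay at -1.08, -0.21 and 0.23 in early HFD tumors and at -2.64, -1.87 and -1.27 in early HFD-LFD tumors. In late tumors it ran from -1.43 through -0.10 to 1.75. The early mean was 1.17 log2 units below the late mean (SE 0.41), and the groups overlapped, with 11 of 18 late tumors at or below the highest early tumor.

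Frzb, a relative of the Sfrp proteins first found in cartilage, lay between -2.79 and -1.35 in early tumors (median -2.11) and between -2.78 and 0.85 in late tumors (median -1.15). All 6 early tumors were below the late median, and the difference of means was -1.07 (SE 0.44). Sfrp4, another Sfrp protein, lay between -2.59 and -1.48 in early tumors (median -2.28) and between -3.07 and 1.29 in the 14 late tumors with a value (median -0.65). Its difference was -1.21 (SE 0.61), again with all 6 early tumors below the late median. The early values of Frzb and Sfrp4 were tightly grouped, while late tumors spread across nearly the same low values and far above them.

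Dkk3 ran from -1.92 to -0.75 in early tumors and from -1.56 to 1.14 in 15 late tumors, a difference of -0.69 (SE 0.27). Within HFD-LFD the Dkk3 difference was 0.01, with a value in 2 of the 3 late tumors, against -1.22 within HFD. Sfrp2 differed by -0.37 (SE 0.37), with 16 of 17 late tumors at or below its highest early value, and its difference was 0.00 in session 1 and -0.49 in session 2. Dkk2 differed by -0.10 (SE 0.39), with 14 of 18 late tumors at or below its highest early value, and the sign turned to 0.28 within HFD-LFD. Neither gene has a settled direction, and 16 of 18 alternative settings and splits for Sfrp2 and 13 of 18 for Dkk2 kept the sign.

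Ctnnb1, which encodes β-catenin itself, was higher in early tumors by a modest amount. Its log2 ratio was 1.25, 1.49 and 1.51 in early HFD tumors and 0.78, 0.89 and 0.96 in early HFD-LFD tumors. The 14 late tumors with a value ran from -0.21 through 0.49 to 0.90. Only 1 late tumor, MSU_105 (LFD), reached the lowest early value, and the difference of means was 0.79 (SE 0.17), or 1.73-fold. The probe lies in the dimmed rows of slide 6, so the 4 tumors of that slide have no value, and with those spots kept the difference was 1.71.

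Axin2 was dim on these arrays. Neither of its probes passed the signal filter, so it was not tested, and its ratios are pulled toward 0 by the background offset. At the probe A_55_P2000783 the tumor channel was well above background in all 6 early tumors and in 3 of 14 late tumors. That probe exceeded a background-subtracted 10 in both dyes on only 1 of 20 arrays with a value. Its ratio was 0.28, 0.92 and 1.30 in early HFD tumors and 1.17, 1.54 and 1.68 in early HFD-LFD tumors. The 3 late tumors above background were MSU_26 (0.98), MSU_137 (0.92) and MSU_59b (0.72), and the other 11 late tumors lay between -0.37 and 0.02, not well above background. The difference of means was 1.15. The second probe, A_66_P134405, had values in every tumor, from -0.01 to 0.63 in early tumors and from -0.45 to 0.66 in late tumors, with a difference of 0.45. At that probe 5 of 18 late tumors reached the lowest early value. The Pearson correlation of both probes over 20 tumors was 0.89, which describes probes of the same gene on the same arrays.

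Lef1, the TCF/LEF factor that is itself a target of the pathway, did not divide the tumors by onset. At the brighter probe it lay at -2.94, -2.50 and -1.28 in early HFD tumors and at -1.09, 0.41 and 0.47 in early HFD-LFD tumors. Late tumors ran from -2.78 through -1.88 to 1.38, with the highest value in MSU_58 (HFD-LFD). The difference of early and late means was 0.53 (SE 0.50), within HFD it was -0.40 and within HFD-LFD -0.05, so it has no settled direction. Values at both Lef1 probes ran closely together (Pearson r = 0.98, Spearman rho = 0.94, over 21 tumors).

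Over all genes tested, 18.1% (3781 of 20944) passed an adjusted p of 0.05 in early against late tumors (limma, Benjamini-Hochberg), 6.05% higher in early tumors and 12.0% lower. Of the 9 members tested, 2 were among them, Wif1 and Ctnnb1, both higher. Since the genes were chosen on this contrast, nothing is read from the count. It was 1 (Wif1) with the dimmed spots kept, where 2366 of 20577 genes passed in all. With the background fitted on all spots it was 5, where 4902 of 20944 genes passed. In the main setting 33.5% of calls were higher in early tumors. That share rose to 82.4% with each array centred on its median. It was 58.0% with the tumor channel alone and 44.8% with the scanner's own log ratio. The median difference of all genes was -0.08, and 0.22 with median centring, so small differences have no settled sign, whereas those of Wif1 and Ctnnb1 were positive in each of 18 alternative settings and splits.

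**Figure D2:**
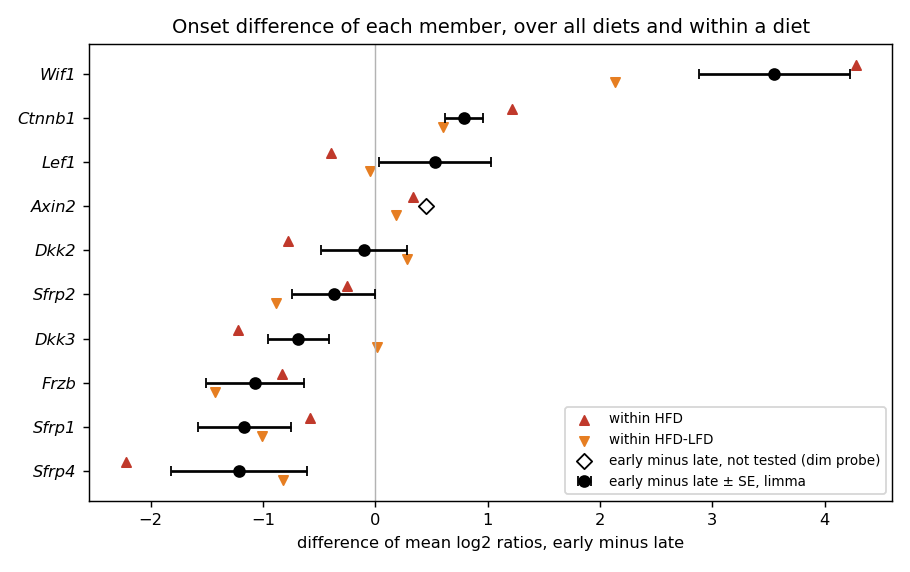
Difference of mean log2 ratios, early minus late (x axis), for each gene (y axis), with black circles and bars for the difference and its SE over all diets, triangles for the difference within HFD and within HFD-LFD, and an open diamond for Axin2, which was not tested. Wif1 stands at 3.55 and the other 6 antagonists between -1.21 and -0.10.

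Genes of the Wnt pathway beyond the 10 were read from a list arranged by role, 101 genes of which 86 were tested. The list was drawn up with earlier results of these data known. Its counts, shares and adjusted p-values describe the contrast and are no independent test. In early against late tumors 17 were higher, 8 were lower and 61 did not pass, that is 29.1% called beside 18.1% of all genes, with a median difference of 0.03 beside -0.08. The split was 31 higher and 4 lower with median centring, 18 and 6 with the tumor channel alone and 20 and 5 with the scanner's log ratio. Of all 20944 genes, those settings called 5253, 2501 and 2948. With slide as a random block 15 of the list were called (13 higher), beside 1693 of all 20944 genes. Without MSU_97 (early HFD) 16 were called (14 higher), beside 2540 of all 20944 genes.

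Of 19 target genes tested, 5 were higher, 3 were lower and 11 did not pass, with a median difference of 0.08. Sp5, a transcription factor induced by β-catenin, rose by 3.66 log2 units (SE 0.62, adjusted p = 9.75e-04, limma), from a late mean of -1.49 ± 1.34 (SD, n = 15) to an early mean of 2.18 ± 1.48 (n = 6). Tnfrsf19, a receptor of the TNF family known as a Wnt target, rose by 3.39 (SE 0.56, adjusted p = 5.99e-04), and 2 of 18 late tumors reached its lowest early value of 2.16. Nkd2, which binds Dishevelled and dampens the signal, rose by 1.89 (SE 0.34, adjusted p = 0.0016). The 3 target genes that fell, named after their values were seen, were Ccn5 (-2.04), Ascl2 (-1.29) and Cdx1 (-0.55). The other target genes that rose, also named after the fact, were Nkd1 (1.55) and Edn1 (0.96).

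Of 8 other antagonists tested, 4 were higher and 1 was lower. Notum, an enzyme that inactivates Wnts by removing their lipid, rose by 1.77 (SE 0.32, adjusted p = 0.00119, limma), with early tumors between 0.16 and 2.24 and late tumors between -0.90 and 1.47. Apcdd1, a membrane-bound inhibitor, rose by 1.86 (SE 0.35, adjusted p = 0.00146), and Kremen2, a receptor for Dkk proteins, by 0.96 (SE 0.31, adjusted p = 0.036). The Kremen2 call was lost with slide as a random block (adjusted p = 0.0854), with the dimmed spots kept (0.0633), with the background fitted on all spots (difference 0.64, adjusted p = 0.194) and without MSU_768, MSU_97, MSU_51 or MSU_54. Named after their values were seen, Kremen1 rose by 0.56 and Dkkl1 fell by 1.75. In the R-spondin axis 3 of 7 genes were higher and none lower. Lgr6, an R-spondin receptor, rose by 2.95 (SE 0.50, adjusted p = 7.01e-04), and Znrf3 and Rnf43, ligases that remove Frizzled from the membrane, rose by 0.74 and 0.67 (adjusted p = 0.0215 and 0.0132). With slide as a random block neither ligase passed (adjusted p = 0.0803 and 0.0599), and Znrf3 also lost its call with the tumor channel alone (0.0756) and without MSU_51 or MSU_54.

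Among 14 receptors and coreceptors 3 were higher and 1 was lower. Ror2, a receptor of the noncanonical branch, rose by 1.74 (SE 0.33, adjusted p = 0.00173, limma) and Fzd1 by 1.34 (SE 0.29, adjusted p = 0.0034), while Fzd4 fell by 1.499 (SE 0.35, adjusted p = 0.00717). The Fzd4 probe was dimmed on slide 6, and with those spots kept the difference was -0.73 and did not pass (adjusted p = 0.51). Fzd10, named after its value was seen, was the remaining receptor that rose (1.81). Of 14 ligands, Wnt4 alone passed, which in the normal gland acts downstream of progesterone. It fell by 2.01 (SE 0.61, adjusted p = 0.0246), and no early tumor lay above the late median, but the call was lost with slide as a random block (adjusted p = 0.0624) and without MSU_768 or MSU_97. None of the other 13 ligands and neither of the 2 secretion genes passed.

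Of 11 nuclear factors only Tcf7 passed, higher by 2.38 (SE 0.55, adjusted p = 0.00717, limma), with 3 of 14 late tumors at or above its lowest early value. Of 11 genes of the destruction complex and its relay, Dvl2 was higher by 0.49 (adjusted p = 0.00829), and Apc2 and Dvl1 were lower by 0.41 and 0.28 (adjusted p = 0.039 and 0.0417). The last 2 have no settled direction, since with median centring the differences were 0.02 for Apc2 and 0.10 for Dvl1, and with the tumor channel alone 0.16 for Dvl1.

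**Figure D3:**
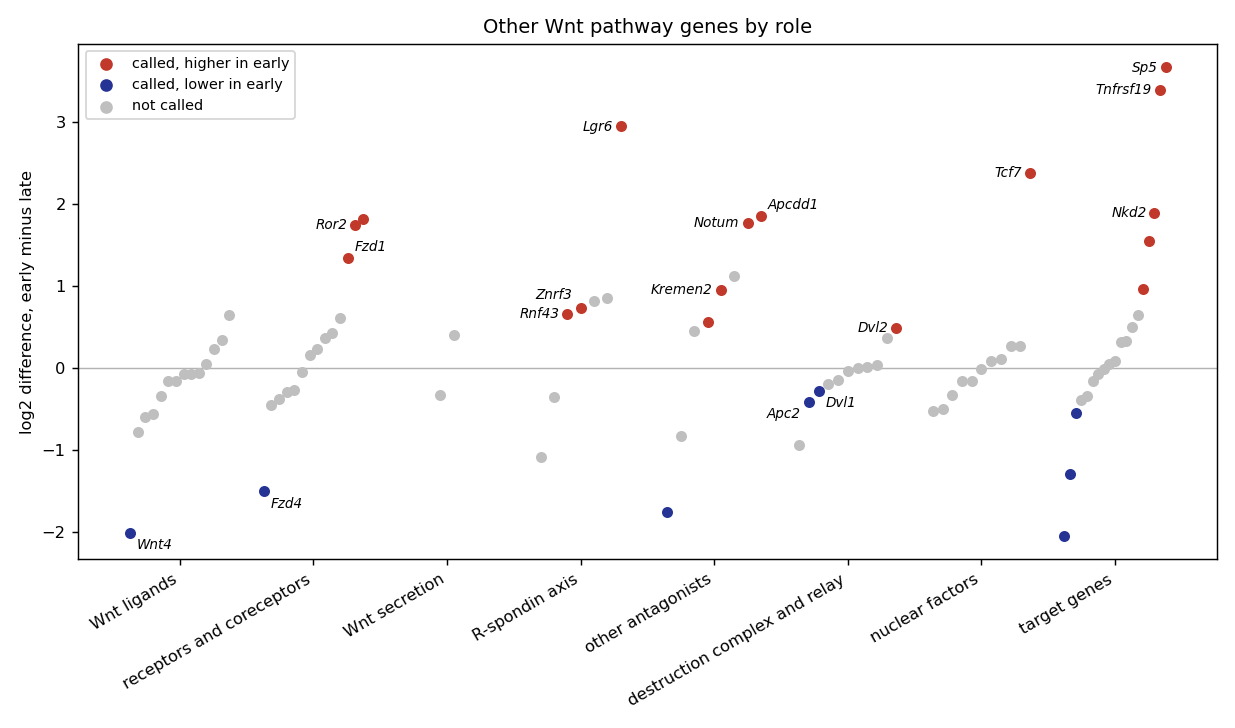
Difference of mean log2 ratios, early minus late (y axis), for 86 other Wnt pathway genes in 8 roles (x axis), with 1 point per gene, red for called and higher in early tumors, blue for called and lower, grey for not called. Sp5, Tnfrsf19, Lgr6 and Tcf7 stand highest and Wnt4 and a target gene lowest, with 17 red and 8 blue points in all.

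Promoters of these genes were searched for the letters that TCF/LEF factors are known to bind, namely CTTTGAA or the letters CTTTGAT or the letters CTTTGTA or the letters CTTTGTT on either strand, from 250 bases before to 50 after each start (RefSeq, GRCm38.p6). Of the 10 members 7 had an entry, with 11 starts, and 1 of the 11, a start of Lef1, held a match. Of the 25 called genes of the wider list 19 had an entry, also with 25 starts, and 3 of those (of Sp5, Apc2 and Tnfrsf19) held a match (12%), beside 16.9% of all 32851 promoters. The 250 bases before the start of Wif1 (chr10:121033754-121034003) are shown because Wif1 had the largest difference of the set, and they hold no match. A stretch before the start of Sp5 (chr2:70474693-70474842) is shown because it holds 2, in capitals. A match of these letters is a description of the sequence, and its absence here says nothing of the factor or of elements farther away.
Wif1 promoter: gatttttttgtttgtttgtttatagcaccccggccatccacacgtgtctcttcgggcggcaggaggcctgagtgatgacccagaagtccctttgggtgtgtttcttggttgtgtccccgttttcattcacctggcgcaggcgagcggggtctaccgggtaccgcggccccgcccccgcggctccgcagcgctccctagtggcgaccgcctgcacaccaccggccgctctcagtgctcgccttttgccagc
Sp5 promoter: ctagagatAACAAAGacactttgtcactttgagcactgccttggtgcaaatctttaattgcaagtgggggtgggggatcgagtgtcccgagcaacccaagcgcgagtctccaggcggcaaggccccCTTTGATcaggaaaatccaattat

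Diet was tested without onset, first among late tumors only. Across the 4 late groups 2.04% of genes (427 of 20944) passed the F test (limma), and none of the 9 members did. Lef1 came closest (adjusted p = 0.0606), with group means of -0.02 in late HFD-LFD tumors, -1.84 in HFD, -2.13 in LFD and -2.13 in LFD-HFD. The HFD-LFD mean rested on MSU_58 at 1.38 and MSU_26 at -0.10, while MSU_59b lay at -1.34. MSU_58 and MSU_26 were alone on slide 5, and MSU_59b was on slide 7. For MSU_58 and MSU_26, diet and slide cannot be told apart. Lef1 passed with slides 6 and 7 left out (adjusted p = 0.0453), without MSU_28 (0.0267) and without MSU_59b (0.03). For Wif1 the adjusted p was 0.14, and 0.0255 without MSU_96, the late HFD tumor with the highest Wif1. With array weights Lef1 (adjusted p = 0.00936), Sfrp4 (0.0164) and Wif1 (0.0252) passed.

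Late HFD against LFD tumors called 0% of genes (0 of 20944, limma), with 1819 at an unadjusted p under 0.05. Wif1 was 1.75 log2 units lower in HFD (SE 0.73, unadjusted 95% interval from -3.29 to -0.21, adjusted p = 0.53), and Ctnnb1 0.50 lower (SE 0.19, adjusted p = 0.47). Sfrp4 was 1.67 higher (SE 0.88) and Dkk2 0.93 higher (SE 0.49), both with adjusted p = 0.61. With array weights Sfrp4 passed, 3.11 higher (adjusted p = 0.0145). These differences did not pass at this number of tumors, and they do not show that the diets act alike. All LFD tumors but MSU_28 were on slide 1, and the late HFD tumors were on slides 3 and 6. Only slide 6 held both diets, so diet and slide largely overlap in this comparison.

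Early HFD and early HFD-LFD tumors differed in 10.1% of genes (2113 of 20944, limma). Of the members, Lef1 alone passed, 2.17 log2 units lower in early HFD tumors (SE 0.57, 95% interval from -3.36 to -0.98, adjusted p = 0.0207). At the brighter probe the 3 early HFD tumors lay at or below -1.28 and the 3 early HFD-LFD tumors at or above -1.09, without overlap. At A_51_P420400 the groups did overlap, with MSU_768 (early HFD) at -0.90 above MSU_62b (early HFD-LFD) at -1.12. Early HFD tumors were all on slide 2 in session 1 and early HFD-LFD tumors all on slide 4 in session 2, so diet, slide and session cannot be told apart. With scan session as a fixed block the Lef1 difference was -0.39 (adjusted p = 0.86), and with slide as a random block -2.17 (adjusted p = 0.0906). It also lost its call under median centring (adjusted p = 0.0984), with the tumor channel alone (0.101) and without MSU_163, MSU_97, MSU_51 or MSU_54. Sfrp1 was 1.57 higher in early HFD tumors (SE 0.62) and Ctnnb1 0.54 higher (SE 0.22), with adjusted p = 0.11 and 0.13, and both passed with array weights (0.0191 and 0.00475). Wif1 was 0.53 lower (SE 0.99, 95% interval from -2.61 to 1.54).

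The onset change was also compared between diets. No gene passed (0%, 0 of 20944, limma, with 1693 at an unadjusted p under 0.05). For Wif1 the change in HFD exceeded that in HFD-LFD by 2.15 (SE 1.31, 95% interval from -0.60 to 4.89, adjusted p = 0.68).

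Within late tumors, where the contrast that chose Wif1 does not enter, Wif1 was set against the other 9 genes and 9 lists of cell type markers, 18 relations in all. None passed after adjustment (smallest adjusted p = 0.16 for Pearson and 0.125 for Spearman correlations, permutation test). The closest by Pearson correlation was Axin2 at A_66_P134405, where the tumor channel was well above background in 7 of the 18 late tumors, so that most of its values lie near background. It gave Pearson r = 0.60 and Spearman rho = 0.57 over 18 tumors (permutation p = 0.00865 and 0.0139, two-sided), and r = 0.42 without the 2 tumors farthest from the median of Wif1. Within scan session 1 the same r was 0.08 (n = 8, exact permutation p = 0.87) and within session 3 it was 0.82 (n = 7, exact permutation p = 0.0111, adjusted p = 0.083). By Spearman correlation the adipocyte list was closest (rho = -0.59, permutation p = 0.0122, adjusted p = 0.125, with r = -0.44). Dkk2 ran the other way (r = -0.55, rho = -0.49, permutation p = 0.0179, adjusted p = 0.16), at -0.67 in session 1 and -0.64 in session 3. Late tumors with more Wif1 and Axin2 signal were MSU_59b, MSU_96, MSU_26 and MSU_137. In contrast, MSU_28 had Wif1 at 1.76 with Axin2 at -0.16, and MSU_105 had Wif1 at 0.96 with Axin2 at -0.30.

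Leaving out 1 tumor changed this picture. Without MSU_86, a late HFD tumor with Wif1 at -1.84 and Axin2 at 0.30, 3 of the 18 relations passed over 17 tumors (permutation test). They were Axin2 (r = 0.71, adjusted p = 0.0138), the squamous keratinocyte list (r = 0.73, adjusted p = 0.0104) and the luminal list (r = -0.65, adjusted p = 0.0285). By Spearman correlation the luminal list did not pass (rho = -0.46, adjusted p = 0.19, permutation test). Over all late tumors of session 1, r was -0.20 for the squamous and 0.29 for the luminal list, and in session 3 it was 0.86 and -0.78. By Spearman correlation the squamous list passed in session 3 (rho = 0.96, n = 7, adjusted p = 0.0417, exact permutation test). By Pearson correlation it did not pass there (adjusted p = 0.0655, same test), and in session 1 its rho was -0.26. The ratios of a tumor share its array and its normalization.

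**Figure D4:**
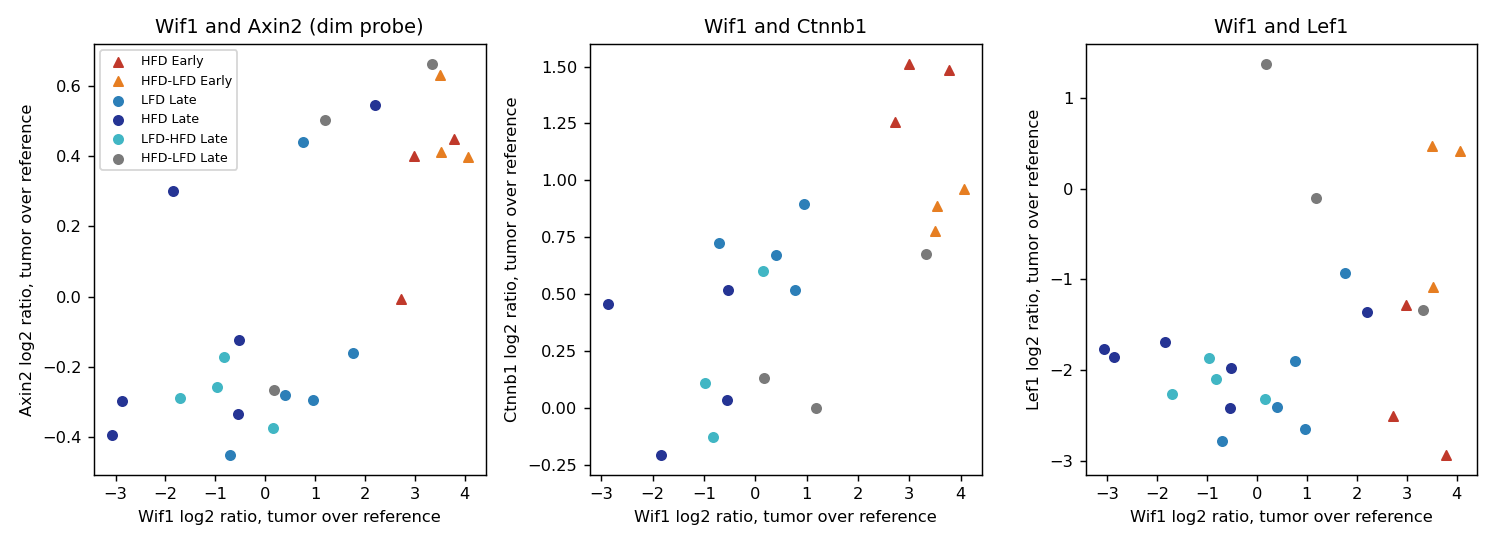
Log2 ratio of Wif1 (x axis) against that of Axin2, Ctnnb1 and Lef1 (y axes, own scale in each panel), with 1 point per tumor, triangles for early and circles for late tumors, coloured by group. Early tumors lie at Wif1 of 2.72 or above in each panel, while Lef1 spreads from -2.94 to 0.47 among them.

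Marker genes of 9 cell types were read beside these results, where 6.05% of all genes were higher and 12.0% lower in early tumors. Luminal markers (Krt8, Gata3, Esr1 and others) were lower in early tumors for 6 of 10 genes, with list means from 0.06 to 2.61 in early and from -1.17 to 3.85 in late tumors. The squamous keratinocyte list had a median difference of 1.29 with 0 of 17 genes higher and 1 lower by the test, and means from -2.07 to 0.39 in early and -3.25 to 2.92 in late tumors. The hair follicle list had 2 of 19 genes higher and a median difference of 1.46, with means from -2.21 to 2.49 in early and -2.37 to 2.44 in late tumors. Basal and myoepithelial markers had 1 of 9 higher and 3 lower, fibroblast markers 2 of 11 lower and endothelial markers 2 of 9 lower. Of 7 adipocyte markers tested none passed, and of 8 macrophage and 9 skeletal muscle markers 1 each was lower. Krt8 and Krt19, which define mammary luminal epithelium, were well above background in all tumors, and Esr1 was in 3 of 6 early and all 18 late tumors.

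MSU_163, early HFD, had Wif1 at 2.72 with a squamous mean of -2.07, a luminal mean of 2.61 and a hair follicle mean of 1.07, beside late medians of -2.58, 3.28 and -1.75. MSU_86, late HFD, had the highest squamous mean of all tumors, 2.92, and a hair follicle mean of 1.58, with Wif1 at -1.84. The other early tumors had squamous means between -0.61 and 0.39 and luminal means between 0.06 and 0.52. The highest late Wif1 values were those of MSU_59b (3.34), MSU_96 (2.20), MSU_28 (1.76) and MSU_26 (1.19). In that order their squamous means were 1.47, -1.53, -1.23 and -1.06, and their luminal means 1.58, 0.23, 0.96 and 2.53. MSU_105, next with Wif1 at 0.96, had a squamous mean of -3.02 and a luminal mean of 3.85. The part of cell type content in the Wif1 difference was not tested.

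Among the 10 genes with the pattern most like Wif1 over the arrays were Stag1 (Pearson r = 0.88), Krt23 (0.87), Gtf2ird1 (0.87), Nkd2 (0.84), Notum (0.84), Mtcl1 (0.84), Cybrd1 (0.84), Tspan18 (0.83) and Tada2a (0.83), each over 20 to 24 tumors. Those most opposed were Ell (-0.88), Sipa1l3 (-0.88), Abcb1a (-0.85), Aqp1 (-0.84) and Dnajc16 (-0.83). Nkd2 and Notum of the Wnt list were thus among the nearest 10 of 20922 genes ranked. Over late tumors alone r was 0.70 for Nkd2 and 0.73 for Notum, and 0.63 to 0.80 for the other 7 named. Axin2 was not ranked, and among the 8 other members that were, Ctnnb1 stood nearest (r = 0.71, rank 156) and Sfrp1 farthest (r = -0.58). These correlations use early and late tumors together, and the ratios share arrays and normalization, so they describe likeness only.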

How the data were processed

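Expression was measured in 24 tumors, 1 per 2-color Agilent array. The intensity values deposited by the authors are mean spot and median local background brightness per dye, plus a background-subtracted intensity. The deposited log10 values are the scanner software's normalized ratios of Cy5 over Cy3. File headers name Feature Extraction 11.0.1.1 and processing notes 8.5.1.1, with probe positions on mm9. Groups follow the diet and onset labels.

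The limma package (3.58.1, R 4.3.3) was used. Background correction was normexp (offset 50) fitted without outlier and dimmed spots, and ratios were loess-normalized within arrays. Bands of 10 rows over 0.5 log2 units below the middle rows (121 to 380) in Cy5 were set missing. The 27286 probes kept exceeded a background-subtracted 10 in each dye on 80% of arrays, and the brightest probe stood for a gene. Tests used lmFit and eBayes with Benjamini-Hochberg adjustment at 0.05, and correlations used 100000 permutations or all of them. The script was tested on simulated data.

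Members and lists were chosen with earlier results of these data known. Of other Wnt genes the text names all calls of a role with at most 3, otherwise the 3 with the smallest p, and for likeness the 10 highest and 5 lowest correlations over at least 20 arrays, of which 1 is not reported here. Alternatives covered background, normalization, filters, missing values, probe choice, array weights, slide, session and each tumor left out.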

Additional observations from a re-analysis of the deposited data

Results flagged for a closer look

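Axin2 at the probe A_66_P134405 stood apart in MSU_163 (early HFD), at -0.00676 log2 units, where the next of the 6 early tumors was at 0.40. The gap took 0.635 of the whole early range, above Dixon's critical value for that number of tumors. It was the 1 flag among 36 groups of values looked at, and chance flags about 1 in 20 groups. MSU_163 also had the lowest early value at the other Axin2 probe, 0.28, and the lowest early Wif1, 2.72.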

How the results depend on the processing

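The Wif1 difference between early and late tumors kept its sign in each of 18 alternative settings and splits (2.13 to 4.28), as did that of Ctnnb1 (0.61 to 1.71, with 1.32 under median centring and 1.22 within HFD). Reversed were Apc2 (0.0229) and Dvl1 (0.10) under median centring and Dvl1 (0.16) with the tumor channel alone. The cause was not tested. Counts of genes called moved by over 1.5 times as follows. With dimmed spots kept they were 2366 (early against late), 101 (diet among late tumors) and 989 (early HFD against early HFD-LFD), with the tumor channel alone 2501, 143 and 806, and with slide as a random block 1693, 7 and 436, where 15 other Wnt genes were called. With array weights they were 6765, 6225 and 7676, beside 1656 for late HFD against LFD, 526 for the difference of onset changes and 40 other Wnt genes. Diet among late tumors gave 149 with the background fitted on all spots, 240 with slides 6 and 7 left out (59 for late HFD against LFD) and 55 with scan session as a block. Early HFD against early HFD-LFD gave 696 under median centring and 95 with session as a block. The difference of onset changes gave 1 with imputed values and 4 with the scanner's log ratio. Leaving out each tumor in turn gave 2076 (without MSU_768) to 4577 genes for early against late, 139 to 1130 for diet among late tumors, 0 to 23 for late HFD against LFD, 540 to 2626 for early HFD against early HFD-LFD, 0 to 20 for the difference of onset changes, 16 to 30 other Wnt genes, and 0 to 3 relations of Wif1 within late tumors. No paired analysis was made because GEO's labels do not tie a tumor to an animal. The number of arrays, and for Axin2 a signal near background, limit the precision.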
